A study of Drosophila melanogaster with 36 samples.

Results

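The comparison described here sets female flies in which an inversion splits an ultraconserved stretch of chromosome arm 2R, named CG15121–CG16894 after its flanking genes, against female flies in which the stretch is whole. Its members are 18 of the 36 arrays of the series: the 6 female arrays of the inversion strains INV1 and INV2, and the 12 female arrays of the intact strains REC, SIM1, REV1 and REV2. Each array measured total RNA from 50 virgin whole flies aged 5 to 7 days, and each strain has 3 female arrays, lettered A, B and C, from separate crosses. REC carries both transposable elements that were later recombined, intact and in cis, and has not been heat-shocked. INV1 and INV2 are homozygous for the inversion, which was induced between the FRT sites of these elements and rebuilt their mini-white eye colour reporter. SIM1 went through the heat shocks without gaining the inversion, and in REV1 and REV2 the inversion had been turned back to the original order. By the methods, the eyes are white in SIM1, REV1 and REV2 and red in REC and the inversion strains, and all 6 strains were built in the same white-mutant background. Each strain is a single line, so its 3 arrays share any variant that became fixed when the line was made.

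Ultraconserved regions of the fly genome are runs of genes whose order has been kept between distant Drosophila species, often together with dense noncoding elements. The region studied holds a cluster of odorant-binding protein genes of the Obp56 group, whose products carry volatile molecules to receptors, as well as genes expressed mainly in males and genes of development such as Toll-7 and 18w. An inversion that cuts such a region can separate a gene from a distant enhancer without changing any coding sequence. The mini-white reporter, in turn, restores a transporter of pigment precursors, and its activity sets the red-eyed strains apart from the white-eyed ones whatever the order of the genes. Whether disruption and eye colour can be told apart is therefore the first matter for these data.

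The deposited values are linear fluorescence intensities of 16637 transcripts, which were converted to log2. All levels and differences below are on this log2 scale, on which a difference of 1 is a doubling. The 18 female arrays share nearly one distribution of intensities: at any rank they differ by at most 0.976%, and their median is 10.39. The median SD between the 3 arrays of a strain was 0.11. A transcript was called when its Benjamini-Hochberg adjusted p in limma, taken over all 16637 transcripts, was under 0.01. The arrays list FlyBase transcripts without gene names. The gene table used here held 44 of the identifiers, 16 of them for a single gene, and none of these belongs to the 137 genes listed for the region, eye pigment, vision, heat shock, ovary, testis or fat body. The genes of the region were therefore not analysed here, the labelled sex and tissue could not be checked against marker genes, and the transcripts below are given by identifier. In RNA from whole flies, fewer cells of a type and less RNA per cell cannot be told apart.

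With eye colour as a covariate, 9 transcripts differed between disrupted and intact females, which is 0.0541% of those tested. Of these, 4 (0.024%) were higher and 5 (0.0301%) lower in INV. At an adjusted p under 0.05 the count was 119 (0.715%). The differences ranged in size from 0.36 to 2.90. Since no white-eyed strain carries the inversion, the covariate leaves only REC as the intact strain with the same eye colour. REC also differs from INV in not having been heat-shocked and in keeping both elements unrecombined. In this comparison these differences cannot be told apart from the disruption. The fitted difference of every transcript equalled the mean of the 6 INV arrays minus the mean of the 3 REC arrays to within 5.36e-15. The white-eyed arrays enter this comparison only through the spread between arrays. For each of the 9 transcripts the 3 REC arrays lay beyond all 15 other female arrays, and the INV arrays overlapped those of the white-eyed strains. None of the 9 separated the 6 disrupted arrays from the 12 intact ones.

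The largest of these differences belonged to FBtr0082287, which with the next 3 transcripts was singled out after the values were seen. Its level in REC females was 11.68 in arrays A and B and 11.74 in array C. The INV1 arrays read 8.78, 8.96 and 8.90 and the INV2 arrays 8.76, 8.77 and 8.64, while the 9 white-eyed arrays spanned 8.32 to 8.91 with a median of 8.73. REC females thus stood alone, and INV females lay 2.90 ± 0.12 (SE) below them, a 7.46-fold difference (adjusted p = 3.25e-11). Against the white-eyed intact females in the same fit, INV differed by 0.12 (adjusted p = 0.499). That contrast with the white-eyed strains called 390 transcripts (2.34%), 288 higher and 102 lower in INV.

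FBtr0082249 was likewise high in REC alone, though at a far lower level. It read 9.02, 9.17 and 9.04 in REC arrays A, B and C, 8.23, 8.48 and 8.48 in INV1, and 8.28, 7.97 and 8.22 in INV2. The white-eyed arrays spanned 7.88 to 8.39 around a median of 8.19, so that INV and the white-eyed strains overlapped. INV lay 0.80 ± 0.11 (SE) below REC (adjusted p = 0.00331; 0.0198 to 0.0713 without any one REC array). The call was also lost without INV2 (0.0307) and without moderation (0.0168).

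FBtr0079028 was low in REC alone. The REC arrays read 9.88, 9.97 and 10.08, the INV1 arrays 10.47, 10.54 and 10.64, and the INV2 arrays 10.82, 10.65 and 10.77. The white-eyed strains, at 10.45 to 10.95 with a median of 10.73, covered the INV range. INV exceeded REC by 0.67 ± 0.10 (SE; adjusted p = 0.00508) and differed from the white-eyed females by −0.05 (adjusted p = 0.732). The call against REC was lost without any one REC array, INV1 array C, INV2 array A or B, or REV1 array A, with adjusted p from 0.0101 to 0.0713. It was also lost without strain INV2 (0.0454) or REV1 (0.0190), and without moderation (0.0200).

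FBtr0114293 was the only one of the 9 that INV also separated from the white-eyed strains in the same fit. Its arrays read 10.68, 10.55 and 10.40 in INV1 and 10.61, 10.50 and 10.50 in INV2, against 10.16, 9.90 and 10.13 in REC. The white-eyed arrays lay between the 2 groups, from 10.17 to 10.42 with a median of 10.26. REV2 array B, at 10.42, was the single intact array that overlapped the INV range. INV exceeded REC by 0.48 ± 0.07 (SE; adjusted p = 0.00508) and the white-eyed strains by 0.28 ± 0.05 (SE; adjusted p = 0.00341). The call against REC was lost without any one REC array, INV1 array A or B, INV2 array A or B, or REV1 array A, with adjusted p from 0.0101 to 0.0808. It was also lost without strain INV1 (0.0113), INV2 (0.0408) or REV1 (0.0222), and in the red-eyed arrays alone (0.0195). The same held without moderation (0.0168) and with an intensity trend (0.0197).

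**Figure D1:**
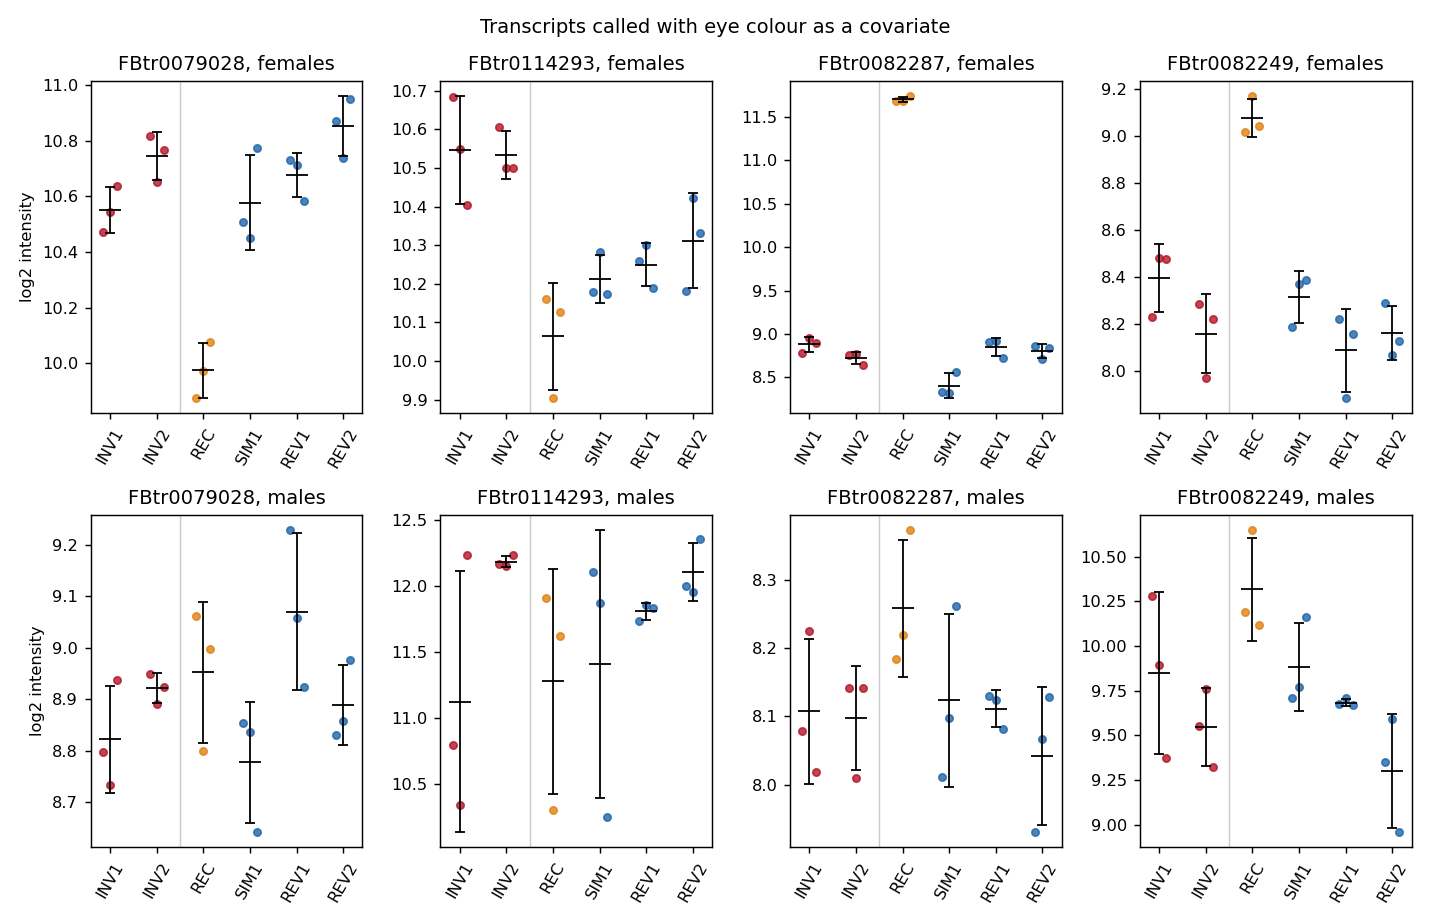
The log2 intensity (vertical axis) of the 4 transcripts described above is shown for each array of each strain (horizontal axis) in females (top) and males (bottom), with the strain mean and SD of 3 arrays as black bars, INV in red, REC in orange and white-eyed strains in blue, and each panel has its own scale. In females the REC points of FBtr0082287 lie at 11.68 to 11.74 and those of every other strain under 9, whereas in males no strain stands apart.

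How many transcripts were called for the difference between INV and REC turned on how the spread was measured. When each strain was given its own mean, so that differences between INV1 and INV2 or among the white-eyed strains no longer count as spread, the same differences gave 293 calls, 81 higher and 212 lower in INV (1.76% of transcripts). When instead the strain was fitted as a random block, with arrays of a strain correlated at 0.21, 2 calls were left, both lower in INV. Restricting the fit to the 9 red-eyed arrays gave 24 calls. The count fell to 2 without any single REC array, to 3 without INV2 array A, to 4 without INV1 array A or REV1 array A, and to 5 without INV1 array B, INV1 array C or INV2 array B. Under the random block FBtr0082287 had an adjusted p of 1.15e-10, whereas FBtr0082249 had 0.0290, FBtr0079028 0.0446 and FBtr0114293 0.10.

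Without the covariate, the 6 INV arrays were set against all 12 intact arrays, and higher calls outnumbered lower ones. Of the transcripts tested, 183 (1.1%) were called, of which 167 were higher and 16 lower in INV. The split was less uneven where more transcripts were called, at 386 and 189 with one mean per strain, 295 and 107 with array weights, 458 and 192 at an adjusted p under 0.05, 346 and 167 without REV2, and 286 and 104 without REV2 array C. The differences were small: among the higher transcripts they ran from 0.22 to 1.85 with a median of 0.40, and among the lower ones from −0.80 to −0.20 with a median of −0.37, against a median of −0.00 over all transcripts. A single transcript exceeded a doubling. The 6 INV arrays did not overlap the 12 intact arrays for 92 transcripts (0.553%). They lay wholly above them for 86 transcripts (0.517%) and wholly below them for 6 (0.0361%). Called transcripts with no overlap numbered 77, of which 75 were higher and 2 lower in INV. The count of 183 was 55, 106 and 66 without INV1 arrays A, B and C, 81 and 113 without INV2 arrays A and B, 118 without REV1 array B, 121 without SIM1 array B and 390 without REV2 array C. The 92 transcripts without overlap became 189 without INV2 array C and 203 without REV2 array C. With a random strain block, 2 of the 183 calls were left. In the fit with the covariate, where INV is set against REC, 1 of the 183 was called, FBtr0114293. There, 26 of the 183 had an adjusted p under 0.05, and the median adjusted p over the 183 was 0.109.

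**Figure D2:**
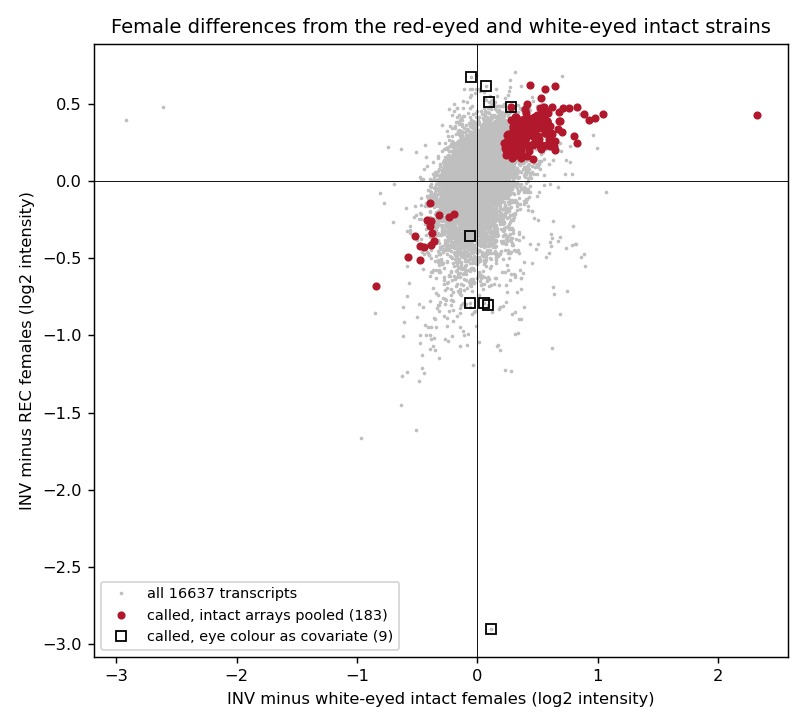
Each point is a transcript, placed by the log2 difference of INV from the 9 white-eyed intact female arrays (horizontal) and from the 3 REC arrays (vertical), with the 183 calls against all intact arrays in red and the 9 calls with the covariate as open squares; the axes share the INV arrays. The squares lie near 0 on the horizontal axis apart from FBtr0114293 at 0.28, and the red points lie away from 0 on both axes.

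The transcripts with the largest differences among those called and without overlap were FBtr0070490 and FBtr0085778 on the higher side and FBtr0089322 and FBtr0075379 on the lower side. FBtr0070490 read 12.09, 12.03 and 12.07 in INV1 and 12.001, 11.95 and 11.77 in INV2. REC followed at 11.62, 11.55 and 11.52, and the white-eyed strains were far lower, SIM1 at 9.41 ± 0.08, REV1 at 9.70 ± 0.03 and REV2 at 9.89 ± 0.12 (SD, n = 3 each). Its levels thus fell into 2 tiers that match eye colour, with INV above REC inside the upper tier. The difference from the pooled intact arrays was 1.85 ± 0.33 (SE; adjusted p = 0.00402), from the white-eyed strains 2.32 ± 0.09 (adjusted p = 3.08e-12), and from REC 0.42 ± 0.12 (adjusted p = 0.0963). It lost the call in the pooled comparison with strain as a random block (adjusted p = 0.0192), without moderation (0.0146), without INV1, INV2, SIM1 or REV1 (0.0234 to 0.104), and without INV1 arrays A, B or C or INV2 arrays A or B (0.0105 to 0.0153).

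FBtr0085778 showed a more graded order. INV1 read 12.57, 12.60 and 12.62, INV2 12.27, 12.46 and 12.50, and REC 12.05, 11.95 and 12.21, while the white-eyed arrays spanned 10.93 to 11.73 with a median of 11.57. REC again lay between INV and the white-eyed strains, and INV exceeded the pooled intact arrays by 0.89 ± 0.14 (SE; adjusted p = 0.00203). INV exceeded REC by 0.43 ± 0.14 (adjusted p = 0.128). The pooled call was lost with the random block (adjusted p = 0.0216) and without INV1, INV2 or SIM1 (0.0852, 0.0154 and 0.0132). In FBtr0070490 and FBtr0085778 REC lay nearer to INV than to the white-eyed mean. It lay nearer to the white-eyed mean for 139 of the 167 transcripts called higher and 15 of the 16 called lower. Over all 16637 transcripts this held for 8529. The REC arrays entered the selection of the called transcripts.

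Among the transcripts called in the pooled comparison, FBtr0089322 was the most reduced. Its arrays read 9.04, 9.22 and 9.19 in INV1 and 9.13, 9.25 and 9.39 in INV2. REC, at 9.97, 9.84 and 9.85, sat within the range of the white-eyed arrays, which ran from 9.56 to 10.58 with a median of 10.01. INV lay 0.80 ± 0.13 (SE) below the pooled intact arrays (adjusted p = 0.00224). That call was lost with the random block (adjusted p = 0.0216), without INV1 or INV2 (0.0797 and 0.0206), and without INV1 array A (0.01004). The intact strains differed among themselves, from 9.69 ± 0.12 in SIM1 to 10.44 ± 0.16 in REV1 (SD, n = 3 each).

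FBtr0075379 had the flattest intact levels of the 4. REC, SIM1, REV1 and REV2 averaged 10.51, 10.52, 10.52 and 10.40, so the intact strains did not part by eye colour. INV1 averaged 10.08 ± 0.15 and INV2 10.15 ± 0.08 (SD, n = 3 each). The difference from the pooled intact arrays was −0.37 ± 0.05 (SE; adjusted p = 7.09e-04), and that from REC −0.39 ± 0.07 (adjusted p = 0.0231). The pooled call was lost with the random block (adjusted p = 0.0192) and without INV1 (0.0221). A two-sided exact permutation test of the 2 INV against the 4 intact strain means gave p = 0.133 for each of the 4 transcripts. That is the smallest value this design allows. The 4 were chosen because their INV and intact arrays did not overlap, which already places both INV strain means beyond all intact means. The selection therefore fixed this result, and the test adds no evidence. By the ranking of strain means alone, both INV strain means lay beyond all 4 intact means for 17.9% of all transcripts, 9.47% above and 8.42% below.

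**Figure D3:**
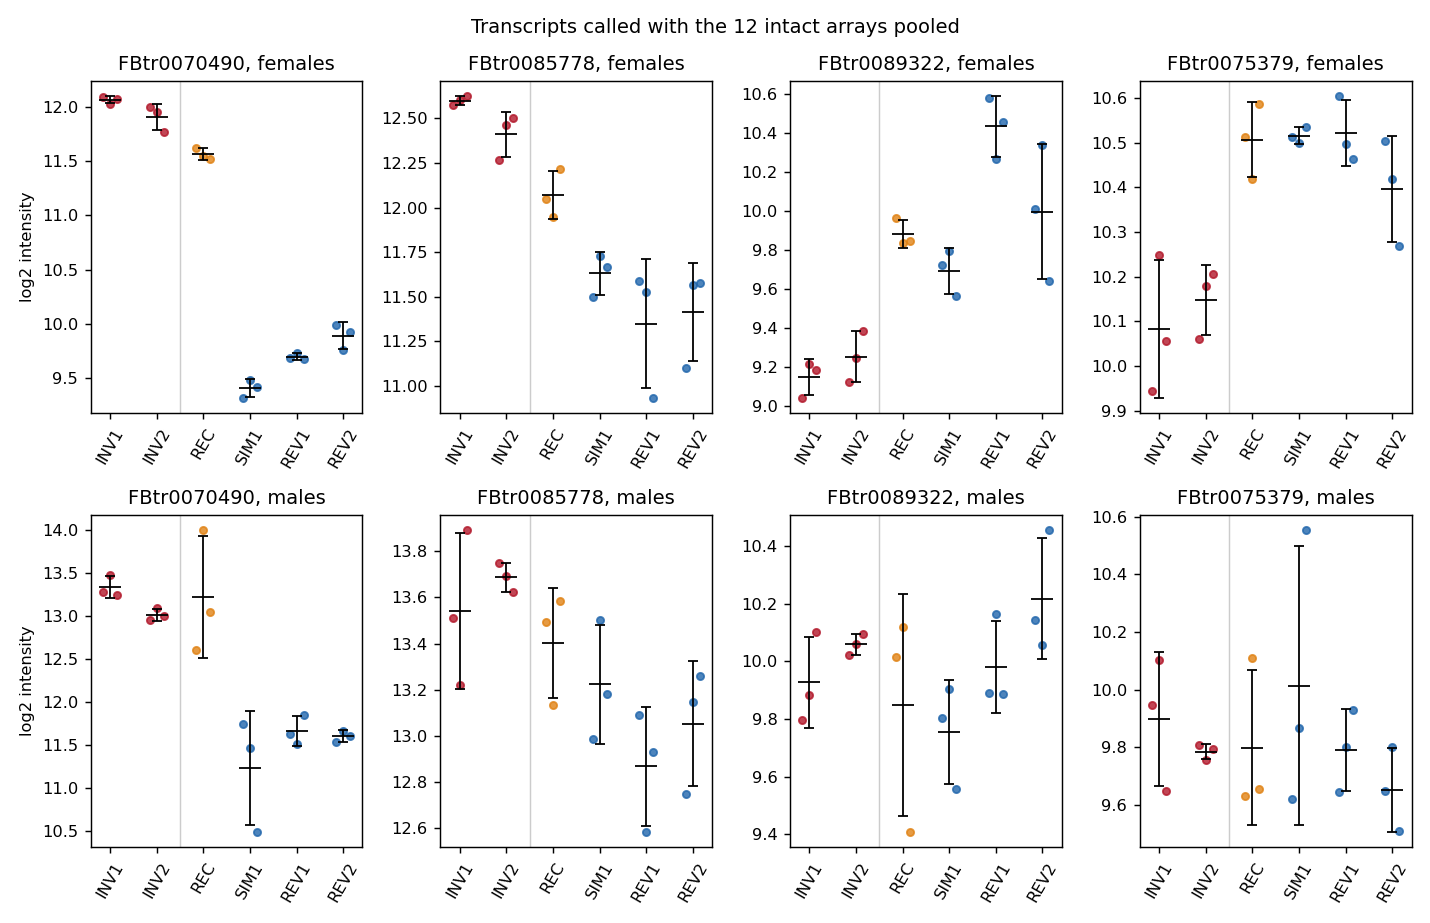
The log2 intensity (vertical axis) of the 4 transcripts with the largest separated differences is shown for each array of each strain (horizontal axis) in females (top) and males (bottom), with strain mean and SD of 3 arrays in black, INV in red, REC in orange and white-eyed strains in blue, and each panel has its own scale. In females the red points lie apart from all others in each panel, and for FBtr0070490 the REC points lie 0.42 below INV on average and the white-eyed points 2.32 below.

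The number and direction of calls varied when INV was compared with each intact strain in turn. These comparisons used one mean per strain and share the INV arrays, so they are set side by side only. INV differed from REC in 293 transcripts (27.6% of them higher in INV), from SIM1 in 392 (61.2%), from REV1 in 683 (51.4%) and from REV2 in 273 (79.5%). As shares of all transcripts these are 1.76%, 2.36%, 4.11% and 1.64%. The median size of a called difference was 0.48, 0.46, 0.44 and 0.51 in the same order, and 19, 11, 18 and 16 transcripts exceeded a doubling. Against REC lower calls outnumbered higher ones, 212 to 81, though at an adjusted p under 0.05 they were 748 to 650 and with array weights 839 to 807. Against REV1 the 351 higher and 332 lower calls changed order at 0.05 (977 and 1064), with array weights (1064 and 1113), without INV2 array C (374 and 406) and without SIM1 array C (418 and 440). Differences between the strains in these splits were not tested. Of the 16637 transcripts, 1176 were called against at least 1 intact strain and 13 against all 4. Of these 13, 11 were higher in INV, 1 was lower and 1 was mixed in direction. For the 167 transcripts called higher against all intact arrays, the median difference was 0.31 from REC, 0.44 from SIM1, 0.45 from REV1 and 0.37 from REV2. For the 16 called lower it was −0.35, −0.41, −0.44 and −0.30. Each count leaned on single arrays. The REC count was 52, 27 and 103 without REC arrays A, B and C, 175, 191 and 169 without INV1 arrays A, B and C, and 470 without REV2 array B. The SIM1 count was 91 and 155 without SIM1 arrays A and B, 239 and 200 without INV1 arrays A and C, 253 without INV2 array A and 628 without REV2 array B. The REV1 count was 101 and 89 without REV1 arrays B and C, 391 without INV1 array A or INV2 array A, and 314 without INV1 array C. The REV2 count was 90 and 179 without REV2 arrays A and B, 177 and 163 without INV1 arrays A and C, and 181 without INV2 array B.

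FBtr0086479 parted the intact strains from one another, and was singled out after its values were seen. Its female arrays read 8.11, 8.10 and 8.11 in INV1, 8.18, 8.09 and 8.18 in INV2, and 7.62, 7.59 and 7.76 in REC. In the white-eyed strains it read 10.98, 11.08 and 10.98 in SIM1, 10.82, 10.72 and 10.55 in REV1, and 10.39, 10.62 and 10.54 in REV2. The levels parted cleanly by eye colour and in the opposite sense to FBtr0070490. INV minus the white-eyed strains was −2.61 ± 0.09 (SE; adjusted p = 7.04e-13) and INV minus REC was 0.48 ± 0.12 (adjusted p = 0.0679). Pooling the intact arrays gave −1.84 ± 0.53 (adjusted p = 0.0581), a value that mixes both directions.

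The 2 inversion strains also differed from each other. Between INV1 and INV2 females 27 transcripts (0.162%) were called, 10 higher and 17 lower in INV2, with a median size of 0.75, and 4 exceeded a doubling. The extremes were 1.35 and −1.22. The transcripts named above had INV2 minus INV1 differences from −0.24 to 0.19, none of them called. The count was 16, 16 and 14 without INV1 arrays A, B and C, 11, 15 and 17 without INV2 arrays A, B and C, 43 without REV1 array A, 48 without SIM1 array C and 60 without REV2 array A. Dropping a whole inversion strain changed the pooled comparison: with INV2 alone as the disrupted strain 12 transcripts were called, 2 of them among the 183, and with INV1 alone 84 were called, 60 of them among the 183.

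The 18 male arrays took no part in choosing the female calls. Arrays A and B of INV1, array B of REC and array C of SIM1 departed from their strain means in the same transcripts, with correlations across transcripts of 0.19 to 0.82, and counts without these 4 arrays were added after seeing the data. With eye colour as a covariate, 2 male transcripts were called (0.012%), and 422 had an unadjusted p under 0.05, against 3294 in females. Without the 4 arrays 3 were called and 2402 had an unadjusted p under 0.05, and with array weights 412 were called in males and 396 in females. The median standard error of the difference was 0.16 in males, 0.13 without the 4 arrays, and 0.08 in females. FBtr0273346 was lower in INV males by 0.68 ± 0.09 (SE; adjusted p = 0.00573): REC males read 12.46, 12.20 and 12.29, INV1 11.52, 11.74 and 11.59, and INV2 11.59, 11.72 and 11.65, with white-eyed means of 11.67, 11.66 and 11.82 in SIM1, REV1 and REV2. As with the female calls, REC males stood alone. FBtr0086479 was higher in INV males by 0.87 ± 0.12 (SE; adjusted p = 0.00582), with REC at 8.34, 8.40 and 8.39, INV1 at 8.97, 9.02 and 9.20 and INV2 at 9.37, 9.31 and 9.59. Its white-eyed male means lay at 12.41, 12.27 and 12.18 in SIM1, REV1 and REV2, so the tiers seen in females were present in males as well. Without the 4 arrays the differences of FBtr0273346 and FBtr0086479 were −0.74 (adjusted p = 0.00803) and 1.002 (adjusted p = 0.00381). Both male calls were lost with the replicate block (adjusted p = 0.0168), strain as a random block (0.0733) or an intensity trend (0.0101), and that of FBtr0086479 without moderation (0.0103). Both were also lost without any one of 9 male arrays, which were INV1 C, INV2 A, INV2 B, the 3 REC arrays, REV1 A, REV1 B and SIM1 A, and 1 of them without REV1 C, REV2 B or REV2 C.

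Without the covariate, a male comparison added after seeing the data, no transcript was called by limma (0%), with 333 at an unadjusted p under 0.05. Without the 4 arrays 1 was called, with 1673 at an unadjusted p under 0.05. Of the 167 transcripts higher in INV females, 143 (85.6%) had a positive difference in males, by a median of 0.12, and 157 (94.0%) without the 4 arrays, by a median of 0.18. Over all transcripts the sign was the same in both sexes for 47.0% and 47.2%. The 16 lower transcripts did not follow: 4 had a negative male difference, and 6 without the 4 arrays. Set against REC alone, the 167 had a median male difference of −0.02, or −0.01 without the 4 arrays. FBtr0070490 was 1.24 higher in INV males than in the pooled intact males (1.20 without the 4 arrays). Its difference from REC males changed sign, from −0.04 to 0.24 without the 4 arrays. FBtr0085778 was 0.48 higher than in the pooled intact males (0.61 without the 4 arrays) and 0.21 higher than in REC males (0.20). FBtr0089322 and FBtr0075379 differed from the pooled intact males by 0.04 and 0.03, or 0.10 and 0.04 without the 4 arrays, in the direction opposite to females. None of these male differences was called. Of the 9 transcripts called with the covariate in females, 8 had a male difference from REC of the same sign, and 7 without the 4 arrays. The shares over all transcripts above belong to the pooled comparison, and none is given for this count. The 9 may not be independent, as FBtr0082249 and FBtr0082250 had nearly equal differences from REC in both sexes.

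The difference between the sexes itself was tested as an interaction over all 36 arrays. FBtr0082287 was the single transcript past the threshold (0.00601%), with 1692 at an unadjusted p under 0.05. INV lay 2.90 below REC in females and 0.16 below REC in males, a difference of −2.74 ± 0.15 (SE; adjusted p = 3.90e-15). Without the 4 male arrays it was −2.70 (adjusted p = 1.41e-12) and again the only call. REC males read 8.18, 8.22 and 8.37, and the other 15 male arrays spanned 7.93 to 8.26, so the high level was found in REC females alone.

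The transcripts called higher in INV females resembled each other in their difference between the sexes, a value whose male part the comparison did not use. Taken from the INV arrays alone, as male minus female with the median of all transcripts set to 0, this difference had a median of 1.04 among the 167, with quartiles of 0.86 and 1.20. Over all transcripts the quartiles were −1.03 and 0.86. Of the 167, 152 (91.0%) lay between 0.5 and 1.5, where 20.9% of all transcripts lie. Without INV1 male arrays A and B, which are among the 4 that departed alike, the median was 1.15 with quartiles of 0.95 and 1.34, and 139 (83.2%) lay between 0.5 and 1.5, against 19.8% of all transcripts. The female INV arrays enter both quantities, and a high female value lowers this difference. Taken from the intact arrays, the median was 1.36; their female values also entered the selection, and a low female value raises this difference. Transcripts with the greatest male or female excess were rarely called: of the 1821 above 2, 2 were called higher, and of the 1359 below −2, 0 were. The share called higher was 3.22% from 0.5 to 1 and 6.15% from 1 to 1.5. The bands as wholes hardly moved, with median INV minus intact differences of 0.02 in both of these bands. The 16 lower transcripts had a median sex difference of −0.13. The mean level of the 200 transcripts with the greatest female excess was 12.96 to 13.04 in INV females and 12.94 to 13.01 in intact females, and that of the 200 with the greatest male excess was 7.89 to 8.002 and 7.88 to 8.02. The levels of the latter 200 lie well below the female median of 10.39. Whether low signal in females limited the calls among male-biased transcripts was not tested. Which tissues these transcripts come from was not tested, as the identifiers are not paired with genes.

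**Figure D4:**
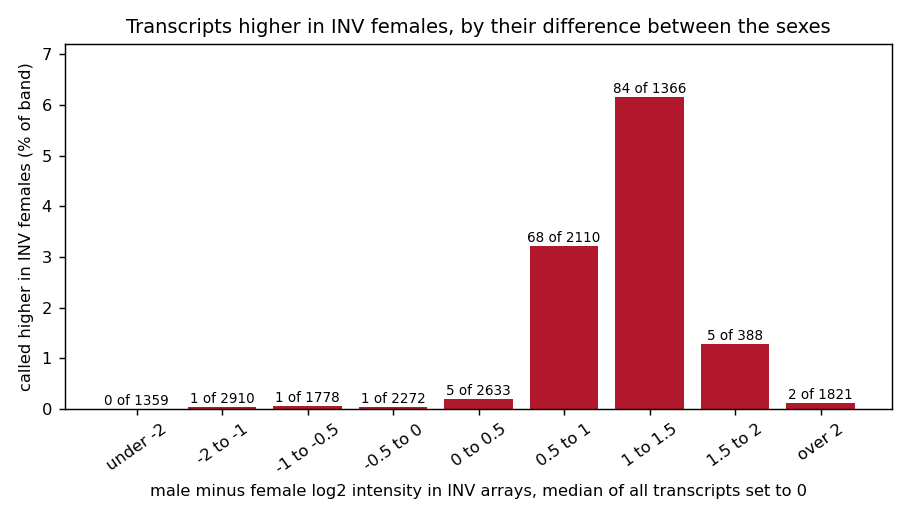
Bars give the percentage of transcripts in each band that were called higher in INV females against all intact females, with counts above them, and bands follow the male minus female log2 intensity in INV arrays (horizontal axis). The calls gather in the bands from 0.5 to 1.5, with 68 and 84 calls, and are nearly absent among the most female-biased and most male-biased transcripts.

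Among the 44 transcripts that the gene table holds, none was called in either comparison. In the pooled comparison 19 were higher and 25 lower in INV, the lowest adjusted p was 0.0691, and 7 had an unadjusted p under 0.05, against 8 with the covariate. These are 7 and 8 of 44, beside 19.7% and 19.8% of all transcripts. The 16 with a single gene cover varied functions. LanA, the alpha chain of laminin in basement membranes, averaged 12.05 in INV1 and 11.67 in INV2, against 12.22 in REC, 12.21 in SIM1, 11.75 in REV1 and 11.53 in REV2. INV1 and INV2 thus lay on either side of the middle of the intact strains, and the difference from REC was −0.36 (adjusted p = 0.293). Fatp1, a fatty acid transport protein, was highest in REC at 12.07, with 11.83 in INV1, 11.54 in INV2, 11.70 in SIM1 and 11.28 and 11.27 in REV1 and REV2, and INV minus REC was −0.38 (adjusted p = 0.167).

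The growth-control genes mio and Wdr24, whose products belong to the GATOR2 complex of nutrient signalling, were lowest in REC. So were the unrelated genes HDAC3, NaPi-III and Uba1, and none of these differences was called. Wdr24 averaged 11.46 in REC, 11.67 in INV1 and 11.94 in INV2, and INV minus REC was 0.34 (adjusted p = 0.133). For mio, named for its role in the oocyte, REC averaged 11.13 and INV1 and INV2 11.32 and 11.39, with a difference of 0.22 (adjusted p = 0.149). Against the pooled intact females these 2 genes differed by 0.17 and 0.11 (adjusted p = 0.300 for both). The histone deacetylase HDAC3 differed from the pooled intact females by 0.03, the trithorax-group remodeller kis by 0.07 and the replacement histone gene His4r by −0.11 (adjusted p = 0.844, 0.609 and 0.209). The membrane skeleton gene alpha-Spec was 0.13 higher (adjusted p = 0.277), and the ubiquitin-activating enzyme gene Uba1, with strain means from 14.37 to 14.55, differed by 0.05 (adjusted p = 0.638).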

How the data were processed

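The authors deposited linear fluorescence intensities from one-colour NimbleGen arrays. By the study's methods, the probes of each of 16637 transcripts were log-transformed, summarized by their median and scale-normalized between arrays, and background correction is not given in the sources used here. The deposited intensities were converted to log2 and fitted without further normalization or filter with limma 3.58.1 (lmFit and eBayes) in R 4.3.3, females and males apart. The main fit had terms for disruption and eye colour, and other fits dropped eye colour, gave each strain a mean, or joined the sexes in an interaction. The threshold for a call was a p of 0.01 after Benjamini-Hochberg adjustment over all transcripts. Exact permutation tests over strain means used scipy 1.17.1. The fits for disruption were first run on simulated arrays, drawn independently and without strain or eye colour effects. False calls that such effects could bring were therefore not checked.

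Groups came from the labels, and disruption and eye colour of each strain from the labels and the methods. Named transcripts were, per comparison, the 2 highest and 2 lowest among those called whose 6 disrupted arrays did not overlap the 12 intact arrays. No transcript met this rule in the comparison with the covariate, so its names were chosen after the values were seen. Members, lists and tests were chosen with earlier results of these data known. Replicates are separate crosses of a single line per strain. In fits with one mean per strain, p-values measure only the spread between crosses of a line. In the other fits the spread also includes differences between lines, but arrays of a line count as independent unless strain is a random block. With no control probes among the values, signal over background was not measured, and the number of arrays limits the precision. Alternatives were other normalizations, a filter on the dimmest 25% of transcripts, other variance models and spreads, array weights, a replicate block, an adjusted p under 0.05, and leaving out each array or strain. The comparison of INV with the white-eyed strains in the covariate fit, and leaving out 4 male arrays, were added after seeing the data. Gene names came from a RefSeq gene table of another assembly, so no coordinates are given.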

Additional observations from a re-analysis of the deposited data

Results flagged for a closer look

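FBtr0082287 differed between the sexes in INV minus REC: the interaction of disruption and sex over all 36 arrays was −2.74 ± 0.15 (SE; limma, Benjamini-Hochberg adjusted p = 3.90e-15). INV minus REC was −2.90 in females, with each of the 6 INV arrays below each of the 3 REC arrays, and −0.16 in males. INV females differed from the white-eyed intact females by only 0.12 (limma, adjusted p = 0.499). The interaction thus reflects a high level in REC females alone. No INV array of a named transcript stood apart from the other 5 of its sex by Dixon's criterion, in 20 groups of arrays examined. The criterion looks for a single outlying array and can miss arrays that deviate together. For FBtr0114293, INV1 male arrays A and B read 10.80 and 10.35, and the other INV male arrays 12.15 to 12.23.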

How the results depend on the processing

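Scale and quantile normalization left every count of calls as reported, and the filter on dim transcripts moved a count by over 1.5 times only for the interaction, from 1 to 0, since over all 36 arrays it removed FBtr0082287. Of 324 recomputed values of named transcripts none changed sign, and 82 lost their call. Calls depended on the spread assumed, and the cause was not tested. With eye colour as a covariate, the 9 calls became 5 with an intensity trend, 3 without moderation, 2 with strain as a random block, 293 with one mean per strain, 24 in the red-eyed arrays alone, 396 with array weights and 119 at an adjusted p under 0.05. Without INV1, INV2, SIM1, REV1 or REV2 they were 26, 2, 51, 4 and 17, and without single arrays 2 to 13. Without the covariate, the 183 calls became 80 without moderation, 2 with the random block, 575 with one mean per strain or with strains weighted equally, 402 with array weights and 650 at 0.05. Without the same 5 strains in turn they were 12, 84, 41, 35 and 513, and without single arrays 55 to 390. The 92 transcripts without overlap became 93 to 203 without single arrays.

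In males the 2 calls became 0 with the intensity trend, the random block or the replicate block, 1 without moderation, 412 with array weights, and 0 to 2 without single arrays. The single interaction became 1062 calls with array weights and 1 to 3 without single arrays. For INV2 against INV1, the 27 calls became 421 with weights, 206 at 0.05 and 11 to 60 without single arrays. Against REC, SIM1, REV1 and REV2, the calls at 0.05 numbered 1398, 1517, 2041 and 765, those with weights 1646, 1171 and 2177 for the first 3, and those without single arrays 27 to 470, 91 to 628, 89 to 858 and 90 to 334. INV against the white-eyed strains, 390 calls in the covariate fit, gave 756 with weights, 1139 at 0.05 and 197 to 728 without single arrays.

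With the replicate letter as a block, the female comparisons gave 6 and 152 calls with and without the covariate. The letters share only a name: over 45 pairs of female arrays of the same letter and different strains, deviations from the strain mean correlated across transcripts by −0.32 to 0.53 with a median of −0.02, against a median of −0.03 for different letters. The replicate block ended the call only of FBtr0114293 among the named female transcripts (adjusted p = 0.0137).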

Other observations

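Some of the transcripts with the lowest adjusted p in the comparison with the covariate have neighbouring identifiers, a pattern noticed after the values were seen and not tested. Of 106 transcripts numbered FBtr0082171 to FBtr0082323 on the arrays, 10 (9.43%) had an adjusted p under 0.05, against 119 (0.715%) of all transcripts, and 4 of them were among the 9 calls. The range starts at FBtr0082171, itself among the 9 calls, so the choice of range raises its share. The members may not be independent: FBtr0082249 and FBtr0082250 differed from REC females by −0.80 and −0.79, and both from REC males by −0.62. Each of the 10 was lower in INV than in REC females. In males, all 10 were also lower in INV than in REC, and 9 of them without the 4 male arrays that departed alike from their strain means. No share over all transcripts is given for this male count. The files give no positions for these identifiers.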
